A study of Mus musculus with 6 samples.

Results

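Nrf2 (*Nfe2l2*), its relative Nrf1 (*Nfe2l1*), the Nrf2 inhibitor *Keap1* with the cullin *Cul3*, the repressors *Bach1* and *Bach2*, and the small Maf partners *Maff*, *Mafg* and *Mafk* form 1 regulatory circuit of 9 genes. Every probe whose gene name on the array was 1 of these 9 was taken, which gave 13 of the 56605 probes and 9 of the 37074 gene names. The rule reads gene names alone. They were followed in bone marrow cells sorted as LSK, the lineage-negative fraction with Sca-1 and c-Kit on its surface where haematopoietic stem and progenitor cells are found, from C57BL/6 mice aged 6 to 8 days. Control mice had the genotype Atg5w/w;VaviCre+ and the others Atg5f/f;VaviCre+ (written here as Atg5f/f;Vav), with 3 arrays in each group. *Atg5* encodes a protein needed to build the autophagosome. The iCre recombinase, driven by *Vav* and active across haematopoietic cells, was carried by both groups. The number of mice behind each sample is not stated, so n, SD and p-values describe arrays and their spread, which may be technical.

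As background, Nrf2 is a CNC-family transcription factor that induces genes of antioxidant defence, glutathione synthesis and NADPH supply. Keap1 holds Nrf2 in the cytoplasm and presents it to a Cul3 ubiquitin ligase, and reactive electrophiles or the autophagy receptor p62 (*Sqstm1*) can block this. Nrf2 binds DNA only as a dimer with a small Maf protein, at the antioxidant response element. Bach1 and Bach2 compete for the same partners and repress such sites. Bach1 is released from DNA by haem, and Bach2 is best known for its part in the lymphoid lineages. Nrf1 is processed at the endoplasmic reticulum and induces proteasome genes. Much of this control acts on protein stability and localisation, which RNA arrays do not measure.

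The antioxidant response element is the DNA letter pattern through which this circuit also acts on some of its own genes. Its core, TGACNNNGC (N, any base), was sought on both strands from 250 bases before to 50 bases after each RefSeq transcript start on GRCm38.p6. All 9 genes had such windows, 15 in all, and 4 of the 15 held the core, against 12.4% of the 32851 windows of all genes. Those windows belonged to *Nfe2l2*, *Mafk*, *Mafg* and *Maff*, and their letters are shown because they are the places in the members' own promoters where the core occurs. Each stretch is read 5′ to 3′ on the strand of its gene, stops before the transcript start, and has the core in capitals. In *Mafk* and *Mafg* the core lies on the opposite strand, so its reverse complement is capitalised.
Nfe2l2, chr2:75704875-75704913, minus strand, core starting 240 bases upstream: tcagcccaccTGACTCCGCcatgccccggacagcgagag
Mafk, chr5:139791503-139791535, plus strand, core starting 13 bases upstream: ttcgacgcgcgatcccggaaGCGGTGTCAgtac
Mafg, chr11:120633741-120633789, minus strand, core starting 222 bases upstream: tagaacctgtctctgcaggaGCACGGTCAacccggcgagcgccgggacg
Maff, chr15:79346489-79346537, plus strand, core starting 112 bases upstream: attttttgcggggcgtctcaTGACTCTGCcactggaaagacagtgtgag
The related pattern TGACTCA, which AP-1 factors also bind, was in 0 of the 15 member windows and in 5.2% of all windows. A match is a description of letters and not a binding site.

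The arrays measured RNA with probes of 60 bases, and the calls below rest on these probes. Those of *Keap1* and the second of *Bach2* are printed because they carry a call and lie in coding sequence. On mm9, the build of the array's own annotation, the *Keap1* probe is annotated to chr9:21035292-21035732 on the minus strand, a stretch of 441 bases for 60 letters, so it crosses an exon junction. The *Bach2* probe lies at chr4:32588782-32588841 on the plus strand.
Keap1 probe: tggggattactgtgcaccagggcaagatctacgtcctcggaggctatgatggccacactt
Bach2 second probe: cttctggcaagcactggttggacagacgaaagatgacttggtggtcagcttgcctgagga

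Signal is given as log2 intensity relative to each array's 75th percentile, a scale on which probes of different genes cannot be ranked against each other. A single slide and scan held the 6 arrays, control in its row 1 and Atg5f/f;Vav in its row 2, so row and genotype cannot be told apart. Spots well above background made up 59.4 to 59.9% on the control arrays and 53.6 to 56.7% on the Atg5f/f;Vav arrays, lowest on Atg5f/f;Vav replicate 3. The single *Atg5* probe was not lower on the arrays labelled Atg5f/f;Vav. The control arrays read 1.10, 0.93 and 1.06 and the others 1.46, 1.51 and 1.74 (difference 0.54, adjusted p = 0.0209 from limma, or 0.0727 and 0.0836 with control replicate 1 or 2 left out). The position of this probe relative to the deletion was not determined, so each direction below rests on the labels of the arrays.

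Of the 9 regulators, *Keap1* was higher and *Bach2* lower on the arrays labelled Atg5f/f;Vav, and the other 7 genes did not pass the threshold, an adjusted p of 0.05 in limma with Benjamini-Hochberg adjustment over 32074 probes. *Keap1* rose 1.43-fold and *Bach2* fell 1.68-fold. All 13 probes were tested. Among them 1 was called higher and 2 lower, both of *Bach2*, which is 23.1% against 34.4% of all tested probes. The second *Bach2* probe entered the test through the control arrays alone, and with probes required above background on all arrays 2 of 12 were called, 1 higher and 1 lower, against 38.1%. By gene, each represented by its brightest probe, 2 of 9 were called (22.2%), against 34.1% of all 20778 genes. The circuit as a whole was therefore not called more often than other genes. At an unadjusted p under 0.05 there were 5 probes and 4 genes. With control replicate 1 or 2 left out limma called 0 of the 13 probes (4 and 3 at an unadjusted p under 0.05), and with control replicate 3 or Atg5f/f;Vav replicate 2 left out it called 1. The 2 groups were fully separate for 8 of the 13 probes, against 55.4% of all probes, and for 7 of the 9 genes, against 55.9% of all genes. The median log2 fold change of the 9 genes was 0.21, where the median over all genes was −0.03.

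**Figure D1:**
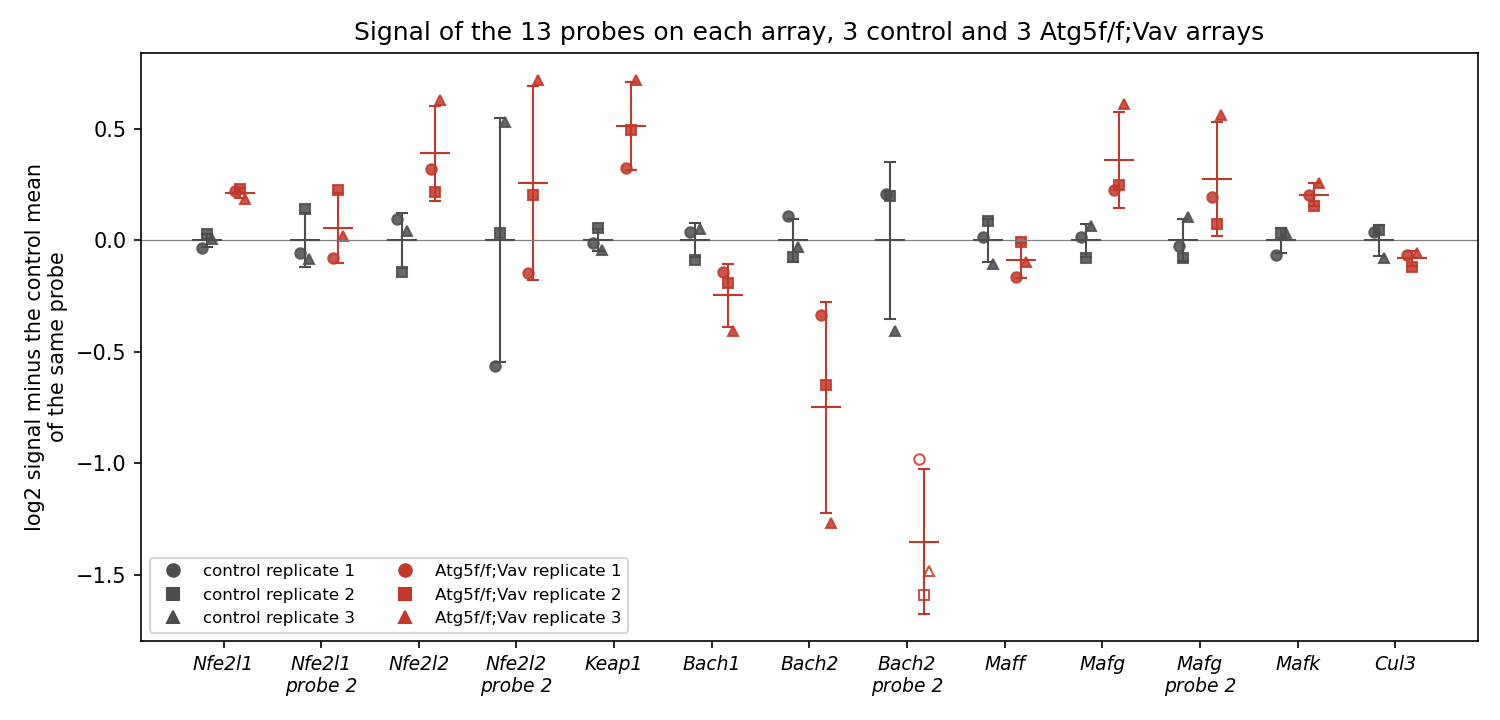
Log2 signal of each of the 13 probes on the 3 control arrays (grey) and the 3 Atg5f/f;Vav arrays (red), minus the control mean of the same probe (vertical axis), with horizontal marks for group means and bars for SD. The red points lie wholly above the grey for *Keap1*, where the means differ by 0.51, and wholly below for the brighter *Bach2* probe, where they differ by −0.75. Open symbols mark the second *Bach2* probe on the Atg5f/f;Vav arrays, where it was not well above background.

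*Nfe2l2* encodes Nrf2 itself. Its brighter probe, at chr2:75513771-75513830 on mm9, read 1.69, 1.45 and 1.63 in control and 1.91, 1.81 and 2.22 in Atg5f/f;Vav. Every Atg5f/f;Vav array was above every control array, and replicate 3 was the highest. The difference of 0.39 (standard error 0.14, 95% confidence interval 0.05 to 0.73) did not pass in limma after adjustment over all probes (adjusted p = 0.0739). It passed with normexp background correction and with an intensity trend in the variance, and was smaller after quantile normalisation (0.22, adjusted p = 0.225) and with the 75th percentile taken over probes above background on every array (0.18, adjusted p = 0.270). A second probe, at chr2:75529291-75529350 and matched to another transcript of the gene, spread widely in both groups, from −0.18 to 0.91 in control and from 0.23 to 1.10 in Atg5f/f;Vav. The difference there was 0.26 (adjusted p = 0.550).

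*Nfe2l1*, for Nrf1, gave tight replicates. Its brighter probe, at chr11:96678783-96678842, read 1.76, 1.82 and 1.80 in control and 2.01, 2.03 and 1.98 in Atg5f/f;Vav. The groups were separate and the SD was 0.03 in control and 0.02 in Atg5f/f;Vav, yet the difference was small, at 0.21 (95% confidence interval −0.02 to 0.44, adjusted p = 0.124), where limma moderates each probe's variance towards that of other probes. It came to 0.04 after quantile normalisation and to 0.0065 with the other percentile (adjusted p = 0.770 and 0.960). The second probe, at chr11:96680710-96680769, was dim and overlapped between the groups, with a difference of 0.06 (adjusted p = 0.754).

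*Keap1*, the adaptor that delivers Nrf2 to the ubiquitin ligase, was higher on the Atg5f/f;Vav arrays. Its 1 probe, whose letters are given above, read 2.50, 2.56 and 2.47 in control and 2.84, 3.01 and 3.23 in Atg5f/f;Vav. The means were 2.51 ± 0.05 and 3.02 ± 0.20 (SD, n = 3 each), without overlap. The difference was 0.51 (standard error 0.13, 95% confidence interval 0.20 to 0.83, adjusted p = 0.0272). The adjusted p was 0.0947, 0.0841 or 0.0656 with control replicate 1, 2 or 3 left out, and without Atg5f/f;Vav replicate 2 it was 0.0619, while the difference stayed between 0.41 and 0.61 with any 1 array left out. After quantile normalisation the difference was 0.26 (adjusted p = 0.133).

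*Cul3*, the scaffold of the ligase that Keap1 joins, did not follow it. The probe at chr1:80268109-80268168 read 0.43 to 0.55 in control and 0.39 to 0.45 in Atg5f/f;Vav, which overlapped, and the difference was −0.08 (95% confidence interval −0.32 to 0.16, adjusted p = 0.556). The interval leaves out a rise as large as that of *Keap1*. With the other percentile the difference was −0.29 (adjusted p = 0.0646).

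*Bach1*, the haem-responsive repressor, was 0.32, 0.20 and 0.33 in control and 0.14, 0.09 and −0.12 in Atg5f/f;Vav (chr16:87733532-87733591). All 3 Atg5f/f;Vav arrays were below all control arrays. The difference of −0.25 (95% confidence interval −0.53 to 0.03) did not pass (adjusted p = 0.140), and it was −0.45 (adjusted p = 0.0291) with the other percentile, a scaling that lowered the median of all probes by a like amount, from −0.06 to −0.27.

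*Bach2*, the lymphoid paralogue, was lower on the Atg5f/f;Vav arrays by its brighter probe, and its dimmer probe allows only a bound. The brighter probe, at chr4:32673009-32673068, read −1.32, −1.50 and −1.46 in control and −1.76, −2.07 and −2.69 in Atg5f/f;Vav, where the replicates spread more widely. The difference was −0.75 (standard error 0.23, 95% confidence interval −1.30 to −0.20, adjusted p = 0.0462), close to the threshold. The second probe read −3.48, −3.49 and −4.10 in control and −4.67, −5.28 and −5.17 in Atg5f/f;Vav, and was well above background on all 3 control arrays and on no Atg5f/f;Vav array. It passed the filter through the group where it is bright, so its call (adjusted p = 0.0153) is no support for that of the first probe. Against the lowest signal called above background on each Atg5f/f;Vav array, its control mean of −3.69 made it at least 1.82-fold lower there on the main scale, while with normexp background correction, which adds an offset of 50 to every signal, the log2 difference was −0.49. The first probe lost its call without control replicate 1, 2 or 3 (adjusted p = 0.133, 0.113 and 0.0949) or Atg5f/f;Vav replicate 2 (0.0781), and its difference ran from −0.96 without Atg5f/f;Vav replicate 1 to −0.49 without Atg5f/f;Vav replicate 3. The second lost it without control replicate 1 or 2 (adjusted p = 0.0663 and 0.0697).

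The small Maf proteins have a DNA-binding and dimerising domain but no activation domain, and serve both Nrf and Bach factors. *Mafg* read 2.94, 2.85 and 2.99 in control and 3.15, 3.17 and 3.54 in Atg5f/f;Vav by its brighter probe at chr11:120489919-120489978. The groups were separate, and the difference of 0.36 (95% confidence interval 0.03 to 0.69) had an adjusted p of 0.0808. Its second probe, at chr11:120486465-120486524, differed by 0.28 with overlapping groups (adjusted p = 0.191). *Mafk*, at chr5:140278221-140278280, read 0.10 to 0.20 in control and 0.33 to 0.43 in Atg5f/f;Vav, separate by a small step (difference 0.21, adjusted p = 0.149). *Maff*, at chr15:79189442-79189501, read −2.74 to −2.55 in control and −2.80 to −2.65 in Atg5f/f;Vav, overlapping (difference −0.09, adjusted p = 0.548). Of these genes, *Mafg* kept a positive difference under every scaling tried but fell to 0.09 after quantile normalisation (adjusted p = 0.546) and 0.15 with the other percentile (adjusted p = 0.312), *Mafk* came to −0.0011 with the other percentile, and *Maff* turned to 0.17 after quantile normalisation.

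**Figure D2:**
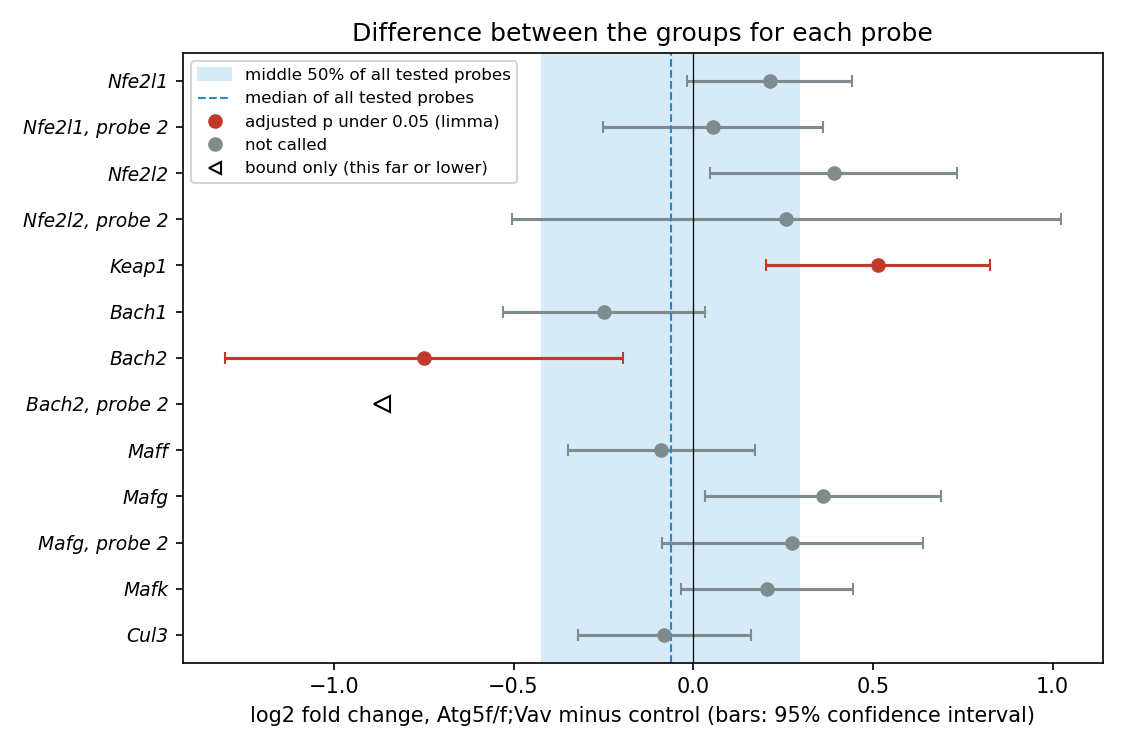
Log2 fold change, Atg5f/f;Vav minus control, of each of the 13 probes (horizontal axis), with bars for the 95% confidence interval from limma, red where the adjusted p was under 0.05, against the median (dashed, −0.06) and the middle 50% of the 32074 tested probes (shaded, −0.42 to 0.29). The intervals of *Keap1* and of the brighter *Bach2* probe leave out 0 and are called, while those of the brighter *Nfe2l2* and *Mafg* probes also leave out 0 but did not pass adjustment. The open triangle is the bound for the second *Bach2* probe, at −0.87.

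Atg5f/f;Vav replicate 3 lay farthest from the control mean for *Keap1*, *Bach1*, *Mafk* and the brighter probes of *Nfe2l2*, *Mafg* and *Bach2*. This array also had the smallest share of spots above background, whose part in these values was not tested. Without it the differences were 0.41 for *Keap1* (adjusted p = 0.0380) and −0.49 for the brighter *Bach2* probe (adjusted p = 0.0414), and both calls remained.

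Whether the regulators moved apart from each other was read within each array, where any scaling of the array cancels. The difference between 2 probes on 1 array has no meaning as a level, so its change between groups is what is given. *Keap1* minus *Nfe2l2*, the inhibitor against its target, changed by 0.12 and overlapped (exact permutation test, 2-sided, p = 0.4). *Nfe2l2* minus *Bach1*, the activator against its competitor, changed by 0.64, and *Nfe2l2* minus *Bach2* by 1.14. *Keap1* minus *Cul3* changed by 0.59 and *Mafg* minus *Bach1* by 0.61. In these 4 of the 5 pairs every Atg5f/f;Vav array was above every control array, each with p = 0.1 by the exact permutation test, the smallest that 3 against 3 allows, and an adjusted p of 0.125 over the 5 pairs. With 3 arrays against 3 this test cannot reach the threshold for a pair, and *Keap1*, *Nfe2l2* and *Bach1* each enter more than 1 of them. For the pairs with *Bach1* or *Bach2* the separation was fixed by the single genes. There the first gene was wholly higher and the second wholly lower on the Atg5f/f;Vav arrays. Those pairs therefore add nothing to the values of the single genes.

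**Figure D3:**
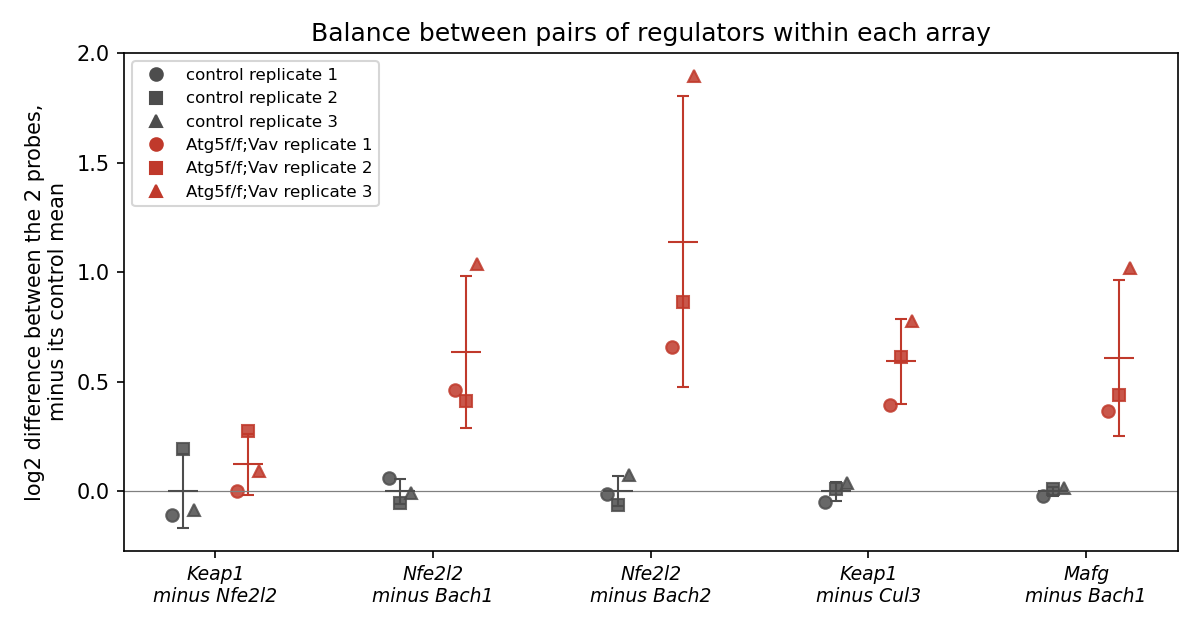
Log2 difference between the brightest probes of 2 regulators on each array, minus its control mean (vertical axis), for 5 pairs on 3 control (grey) and 3 Atg5f/f;Vav (red) arrays, with marks for means and bars for SD. The groups overlap for *Keap1* minus *Nfe2l2* and are separate for the other 4 pairs, with *Nfe2l2* minus *Bach2* the widest apart at 1.14.

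The genes whose signal ran most like a regulator's over the 6 arrays were found by Pearson's r over all tested genes, as a description that the difference between the groups feeds. For *Nfe2l2* the nearest named gene was *Ccdc6* (r = 0.9972), after a transcript named only by its position (r = 0.9978). *Keap1* ran closest to *Mt2*, a metallothionein that binds zinc and other metals (r = 0.9983), and *Cd3eap*, a subunit of RNA polymerase I (r = 0.9973). Between the groups *Mt2* differed by 4.19 on the log2 scale, against 0.51 for *Keap1*, so the likeness is of shape and not of size. For *Bach1* they were *Nod2*, a sensor of bacterial peptidoglycan, and *Arhgap20* (both r = 0.9975). *Bach2* ran closest to *Ago4*, of the Argonaute family of small-RNA effectors (r = 0.9994), and to a second transcript known only by position (r = 0.9993). With 6 arrays r rests on few points, and the named genes were not alone. Of the 20778 tested genes, an r above 0.99 was reached by 13 with *Nfe2l2*, 64 with *Keap1*, 28 with *Bach1* and 161 with *Bach2*.

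Around the regulators stood 11 lists of partners and targets, 136 genes in all, of which 130 were tested. Of these 67 were called higher on the Atg5f/f;Vav arrays, 11 lower and 52 neither. That is 60% called, against 34.1% of all genes, of which 18.7% were higher and 15.3% lower. The lists were chosen with earlier results of these data known, so this excess is no independent evidence. By list the share called ran from 0% for other CNC and large Maf genes to 96.8% for proteasome subunits, which gave 30 of the calls. The median log2 fold change of the 130 was 0.46. Some genes stand in 2 or 3 lists, such as *Sqstm1*, *Gclm* and *Cul1*. Without control replicate 1 only 1 of the 130 remained called, and without control replicate 2 it was 0, while 80 and 79 had an unadjusted p under 0.05. Over all probes the calls then numbered 330 and 251 in place of 11024.

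Other CNC and large Maf factors, which share the DNA-binding fold, were tested for 4 of 6 genes and limma called 0, with 0 at an unadjusted p under 0.05. Their median was −0.13, and the value farthest from 0 was that of *Mafa* (−0.23, adjusted p = 0.159). Among 5 coactivators that Nrf2 uses, 2 fell (40%, against 34.1% of all genes), and the median was −0.27. These were *Chd6*, a chromatin remodeller, and *Crebbp*, the acetyltransferase CBP, each lower by 0.54 on the log2 scale (adjusted p = 0.0172 and 0.0421). Leaving out either control replicate 1 or control replicate 2 left 0 of the 5 called by limma, with 2 at an unadjusted p under 0.05, and 1 was called without Atg5f/f;Vav replicate 1 or 3.

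The machinery that charges cullins with the ubiquitin-like protein Nedd8 and removes it again showed 12 of 22 genes higher and 1 lower. That is 59.1% called, against 34.1% of all genes, with a median of 0.46. *Ube2m* and *Ube2f*, the conjugating enzymes that attach Nedd8, rose by 0.88 and 0.66 (adjusted p = 0.0124 and 0.0165), and *Cops5*, the catalytic subunit of the COP9 signalosome that removes it, rose by 0.70 (adjusted p = 0.0159). *Dcun1d3*, a cofactor of neddylation, fell by 0.71 (adjusted p = 0.0300). Of 7 other cullins, *Cul4a* (0.54) and *Cul2* (0.40) were higher (adjusted p = 0.0322 and 0.0378), and 5 were not called, with a median of 0.13. That is 28.6% called, against 34.1% of all genes. With the same control arrays left out, 0 of the 22 and 0 of the 7 were called by limma, with 13 and 14 of the 22 and 2 of the 7 each time at an unadjusted p under 0.05.

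Proteins that bind Keap1 and can shield Nrf2 or be degraded with it gave 3 of 7 genes higher (42.9%, against 34.1% of all genes called). These were *Pgam5*, a mitochondrial phosphatase (0.47, adjusted p = 0.0367), *Mcm3*, of the replicative helicase (0.46, adjusted p = 0.0284), and *Dpp3*, a peptidase (0.43, adjusted p = 0.0269). The receptor p62 is the member of this list most tied to autophagy, and its 3 probes disagreed. The brightest *Sqstm1* probe differed by 0.17 (adjusted p = 0.274), another by 0.46 (adjusted p = 0.0358) and the dimmest by −0.34 (adjusted p = 0.184). Other routes degrade Nrf2 without Keap1, among them that of the kinase GSK3 and β-TrCP. Of 7 genes of these routes 1 was higher and 1 lower (28.6%, against 34.1% of all genes). The higher was *Gsk3a* (0.46, adjusted p = 0.0263), and the lower *Btrc*, which encodes a form of β-TrCP (−0.62, adjusted p = 0.0486). Of 9 genes that process or degrade Nrf1, 1 was higher, 1 lower and 7 not called (22.2% called, against 34.1% of all genes). *Derl1*, of the endoplasmic reticulum export channel, rose by 1.03 (adjusted p = 0.0138). *Ogt*, which adds O-linked N-acetylglucosamine, fell by 0.48 (adjusted p = 0.0332). In each of these 3 lists limma called 0 genes when control replicate 1 or 2 was left out, with 1 to 3 in each at an unadjusted p under 0.05.

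Genes that Nrf2 induces were called in 20 of 27 cases (74.1%, against 34.1% of all genes), 17 higher and 3 lower, with a median of 0.57. Some of this list's genes were also shown by the study for these samples, so its direction is not independent evidence. *Nqo1*, a quinone reductase, read −3.15, −3.33 and −3.52 in control and −0.99, −0.01 and 0.96 in Atg5f/f;Vav, a difference of 3.32 (adjusted p = 0.0121). *Blvrb*, a biliverdin and flavin reductase, rose by 2.39 (adjusted p = 0.0174). *G6pd2* was called higher (adjusted p = 0.0112), but only 1 of the 3 control arrays had it well above background, so its fitted 2.10 is uncertain. It is a retrocopy of *G6pdx*, so its probe may also take up *G6pdx* RNA. The 3 that fell were *Ephx1*, an epoxide hydrolase (by 1.60, adjusted p = 0.0226), *Gstm1*, a glutathione transferase with close paralogues (by 0.78, adjusted p = 0.0290), and *Osgin1* (by 0.74, adjusted p = 0.0153). Of the 27 genes, 1 was called with control replicate 1 left out and 0 with control replicate 2 left out by limma, while 21 and 20 had an unadjusted p under 0.05. *Slc7a11*, *Me1* and *Aox1* were not above background on enough arrays. On the Atg5f/f;Vav arrays *Nqo1*, *Blvrb* and *Gclm* were lowest on replicate 1 and highest on replicate 3, and so were the erythroid genes *Car1*, *Gata1* and *Klf1*, which rose by 3.80, 3.0 and 2.95 (adjusted p = 0.0138, 0.0121 and 0.0159). Of the 11 erythroid genes 5 were called higher and 4 lower, the lower ones led by *Slc4a1* (−2.29), so the list did not rise as a whole. The part of these erythroid changes in the target genes was not tested. Differences of the 27 Nrf2 targets ran from −1.60 to 3.32, and those of the 9 regulators from −0.75 to 0.51. A range widens with the number of genes, so the 2 ranges cannot show which set moved more.

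Of the haem, iron and antioxidant genes that Bach1 represses, 4 of 8 tested were higher and 0 lower, with a median of 0.57. That is 50% called, against 34.1% of all genes. *Slc40a1*, the iron exporter ferroportin, rose by 2.15 (adjusted p = 0.0187) and was likewise highest on replicate 3, and the glutathione synthesis genes *Gclm* and *Gclc*, which Nrf2 also induces, by 1.61 and 0.61 (adjusted p = 0.0181 and 0.0488). *Hmox1*, haem oxygenase and the best known Bach1 target, was not called. It read −1.84 to −1.66 in control and −2.30 to −1.40 in Atg5f/f;Vav, where the replicates lay on both sides of the control arrays (difference −0.14, adjusted p = 0.657). Among proteasome subunits, the targets of Nrf1, 30 of 31 were higher and 0 lower, and the median was 0.69. *Psmc5*, *Psma5* and *Psmd3* led with 0.98, 0.88 and 0.88 (adjusted p = 0.0124, 0.0165 and 0.0164). When control replicate 1 or 2 was left out, 0 of the 8 Bach1 targets (4 and 4 at an unadjusted p under 0.05) and 0 of the 31 proteasome genes (30 and 30) were called by limma.

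Of 12 lymphoid genes among which Bach2 acts, 3 were called lower and 0 higher, with a median of −0.35. That is 25% called, against 34.1% of all genes. With normexp background correction, with an intensity trend or without Atg5f/f;Vav replicate 1, limma called 1 higher and 4 lower. *Notch1*, the receptor that starts the T lineage, fell by 2.23 (adjusted p = 0.0146), *Foxo1* by 0.63 (adjusted p = 0.0340) and *Ikzf1*, for Ikaros, by 0.34 (adjusted p = 0.0420). Limma called 0 of the 12 when either control replicate 1 or control replicate 2 was left out, with 4 each time at an unadjusted p under 0.05.

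**Figure D4:**
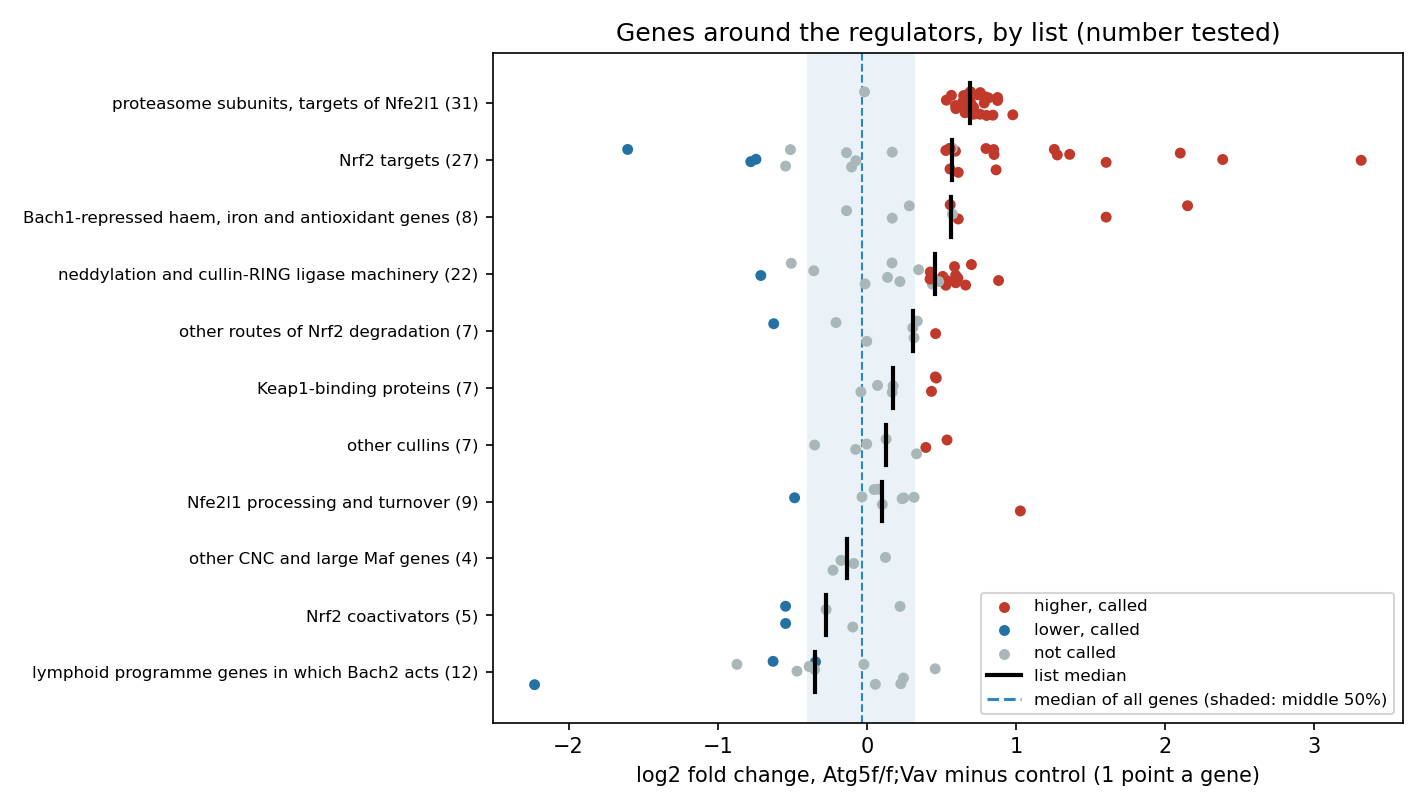
Log2 fold change, Atg5f/f;Vav minus control, of each tested gene in the 11 lists (1 point a gene, red called higher, blue called lower, grey not called), with a black mark for the list's median and the median (dashed, −0.03) and middle 50% (shaded, −0.39 to 0.32) of all 20778 genes. The proteasome points gather around 0.69 with 1 gene near 0, the Nrf2 targets spread from −1.60 to 3.32, and the CNC relatives, coactivators and lymphoid genes have medians below 0.

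Some cell type markers were called too, and fewer cells of a type cannot be told apart from less RNA per cell. The share called ran from 0% for T and NK cell and 11.1% for B cell markers to 90% for neutrophil markers, against 34.1% of all genes. Macrophage (33.3%) and mast cell (37.5%) markers lay near the share over all genes. *Kit* and *Ly6a*, which define LSK cells together with the lineage gate, were well above background on all arrays. Of 10 LSK and stem cell genes, *Ly6a*, for Sca-1, was higher (1.57) and 4 were lower, led by *Mecom* (−1.75), *Hlf* (−1.65) and *Procr* (−1.56). Summed linear signal, in units of the 75th percentile, was 162 to 170 in control and 91.9 to 160 in Atg5f/f;Vav. Of 11 erythroid genes 5 were higher, led by *Car1*, *Gata1* and *Klf1*, and 4 lower, led by *Slc4a1* (−2.29), *Hba-a1* (−2.26) and *Alas2* (−2.07). Their sums, in which the bright *Hba-a1* weighs most, were 226 to 510 in control and 86.8 to 147 in Atg5f/f;Vav, so they do not show the genes that rose. Of 10 neutrophil genes 3 were higher and 6 lower, with sums of 181 to 299 and 244 to 303. Beside *Bach2*, the B cell markers had 1 of 9 higher and 0 lower, with sums of 9.87 to 13.8 in control and 12.1 to 20.5 in Atg5f/f;Vav. With the other percentile or without Atg5f/f;Vav replicate 2, 1 was lower, and with a replicate block 4 were higher and 0 lower. T and NK cell markers had 0 of 6 called by limma, with 1 at an unadjusted p under 0.05 and sums of 9.70 to 14.5 and 11.4 to 15.5. Megakaryocyte genes had 2 higher and 3 lower of 7 (sums 8.16 to 9.49 and 7.43 to 7.61), mast cell genes 1 and 2 of 8 (10.1 to 24.0 and 9.48 to 13.8), macrophage genes 2 and 0 of 6 (4.96 to 6.99 and 7.72 to 8.41), and stromal genes 0 and 3 of 6 (10.2 to 40.7 and 6.83 to 9.61). On the log2 scale the stromal median was −0.69 on control replicate 1, and 3.17 and 2.67 on control replicates 2 and 3. On the Atg5f/f;Vav arrays it was −1.31 to −0.85. The lower calls included *Ppbp* (megakaryocyte) and *Col1a1* (stromal), above background on no Atg5f/f;Vav array. Both passed the filter through the control arrays. *Cd79a*, the 1 B cell call, was above background on 1 control array. With probes required above background on all arrays, limma called 0 of 7 B cell markers (2 at an unadjusted p under 0.05). It then called 2 megakaryocyte genes higher and 2 lower of 6, and 2 stromal genes lower of 4. Leaving out control replicate 1 or 2 left 0 of the erythroid and 0 of the neutrophil genes called by limma, with 9 of each at an unadjusted p under 0.05, and 3 to 5 neutrophil genes were called with any other array left out. With either of those control arrays left out the LSK calls fell from 5 to 1, and the megakaryocyte and macrophage calls to 0 (at least 5 and 2 at an unadjusted p under 0.05). The 3 stromal calls held without control replicate 1 and were 0 by limma, with 2 to 4 at an unadjusted p under 0.05, without control replicate 2 or 3 or Atg5f/f;Vav replicate 2 or 3. The part of these shifts in the values of the regulators and their targets was not tested.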

How the data were processed

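The members and the gene lists were chosen with earlier results of these data known. The authors sorted LSK cells, hybridised their RNA to 1-colour Agilent arrays, and deposited 1 intensity per spot from Feature Extraction 12.0.3.1, corrected for background but not scaled between arrays. The authors' second deposited table holds the same signal divided by the 75th percentile of all spots on that array. From the intensities, log2 was taken and the array's own 75th percentile, computed over its 59305 non-control spots, was subtracted. Between 64 and 81 spots on an array carried an outlier flag and were dropped, none was saturated, and repeated spots of a probe were averaged. A probe entered the 2-sided test (lmFit and eBayes of limma 3.58.1, R 4.3.3) when 3 or more of the 6 arrays had it well above background, which left 32074 of 56605. A gene was represented by its brightest probe. Named were all 9 members, at most 3 called genes each way of a list, or 1 uncalled gene where none passed, and the 2 genes most like *Nfe2l2*, *Keap1*, *Bach1* and *Bach2*. *Sqstm1*, *Hmox1*, *G6pdx*, *Kit* and the genes not tested were named outside this rule, after their values were seen. Alternatives were other background corrections, scalings, filters and variance models, a mean over a gene's probes, the t-test of the methods, a replicate block and each array left out. The number of arrays limits the precision. The fit was tested on simulated data with independent normal noise and few changed probes. That setting differs from these arrays, so it checks the code and does not bear on the calls.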

Additional observations from a re-analysis of the deposited data

How the results depend on the processing

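With 3 arrays a group, the calls on *Keap1* and *Bach2* lay close to the threshold, and no fold change of a called regulator changed sign. Main counts were 3 member probes, 2 member genes and 78 of 130 list genes. Quantile normalisation gave 1, 0 and 51 (1 member gene at an unadjusted p under 0.05), no filter on dim probes 1, 0 and 44 (4 member genes), and the methods' t-test with Benjamini-Hochberg adjustment 0, 0 and 0 (4, 3 and 89 unadjusted). The deposited values gave 1 member gene, and an intensity trend gave 5 probes and 4 genes. With 1 array left out the counts ran from 0 to 3, 0 to 2 and 0 to 78. *Keap1* was 0.26 after quantile normalisation (adjusted p = 0.133), 0.31 with the scaling percentile restricted to probes above background on every array (0.0802), and 0.51 without the filter (0.0700) and by the t-test (0.0629), and it ran from 0.41 to 0.61 with 1 array left out. *Bach2* was −0.59 after quantile normalisation (adjusted p = 0.0944), −0.73 from the deposited values (0.0512), and −0.75 without the filter (0.10) and by the t-test (0.126, unadjusted 0.0553), and it ran from −0.96 to −0.49. Past the threshold came *Nfe2l2* at 0.38 with normexp (0.0443) and 0.39 with the trend (0.0458), *Mafg* at 0.36 with the trend (0.0452), *Bach1* at −0.45 with the other percentile (0.0291), and, by the unadjusted t-test, *Nfe2l1* at 0.21 (0.000713, though 0.04 after quantile normalisation and 0.0065 with the other percentile) and *Mafk* at 0.21 (0.00997). That percentile moved the median of all probes from −0.06 to −0.27, with 3369 higher and 10089 lower calls, where the main scaling gave 5540 and 5484. Relative to each setting's median, *Keap1* lay 0.28 to 0.58 above and *Bach2* at −0.98 to −0.47. Reversed, all uncalled, were *Maff* at 0.17 (quantile), *Mafk* at −0.0011 and the second *Nfe2l1* probe at −0.15 (other percentile), that probe at −0.03 without Atg5f/f;Vav replicate 2, and the second *Nfe2l2* probe, which ran from −0.023 without control replicate 1 to 0.52 without control replicate 3. The second *Bach2* probe lost its call by the t-test (adjusted p = 0.0575). Over all probes limma called 330 and 251 without control replicate 1 or 2, and 7722 to 10304 without any other single array. The cause of these changes was not tested. Deviations of same-numbered arrays from their group means correlated at −0.07, 0.19 and 0.11. With no reference for such values, they cannot settle whether the numbers pair the samples. With a replicate block the counts were 3, 2 and 76, with *Keap1* at an adjusted p of 0.0459 and *Bach2* at 0.0490. A slide block was not run, since there was 1 slide.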
